A study of Homo sapiens with 18 samples.

Results

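Histone genes were followed in 2 human leukemia cell lines, Jurkat T cells and THP1 monocytes, after 24 h with graphene oxide (GO) or with GO carrying amino groups (GONH2). The members were taken by gene symbol, as every gene of the replication-dependent histone clusters and every variant histone gene with a probe on the Illumina HumanHT-12 v4 array, pseudogenes left out. This gave 80 genes with 94 probes, of 20041 genes with a single-symbol probe and 47217 probes in all. The names H1-1 to H1-6, H2AC, H2BC, H3C and H4C stood for 69 cluster genes, and H1-10, H2AJ, H2AX, H2AZ, H3-3, MACROH2A and the remaining linker histones for 11 variant genes.

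There were 18 arrays, 3 for each of 6 groups: Jurkat with GO, Jurkat with GONH2, untreated Jurkat, THP1 with GO, THP1 with GONH2 and untreated THP1. The treated cells received 50 µg/ml of material and the controls 0 µg/ml. Jurkat cells derive from a leukemia of T cells and THP1 cells from a leukemia of monocytes, so that each group stands for 1 tumor cell line and not for primary immune cells. GO is a sheet of oxidized carbon, and GONH2 was made from it by opening epoxide rings with a diamine. The labels name the arrays of a group biological replicates, without saying whether they came from separate cultures, so that p-values measure the spread between these arrays.

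Doubts about the labels bear on every comparison. The arrays labelled Jurkat detected 17 of 20 monocyte markers on all 3 controls and 6 of 18 T-cell markers, of which 8 were detected on none. The arrays labelled THP1 detected 18 of 20 monocyte markers and 1 of 18 T-cell markers on all 3 controls. In the study's own tables, the treated means for GO in Jurkat equal those of the arrays labelled GO, whereas the treated means for GO in THP1 equal those of the THP1 arrays labelled GONH2. Its tables for GONH2 hold treated means that match neither treated group of either line. The THP1 groups are therefore called labelled GO and labelled GONH2 throughout. Within groups, the correlation between arrays was at least 0.987, and 15761 to 17809 probes were detected per array.

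Histones are the proteins around which DNA is wound. The genes of the histone clusters supply most of the histones H2A, H2B, H3, H4 and H1 that newly copied DNA needs, and they are transcribed in S phase. Most of their messenger RNAs end in a stem-loop that the stem-loop binding protein recognizes, and not in a poly(A) tail, although several cluster genes also give polyadenylated transcripts. The variant genes lie outside the clusters, and most of them give polyadenylated messenger RNA and are transcribed throughout the cell cycle. The labelling kit named by the study primes from poly(A) tails, so that a level measured here for a cluster gene is that of the RNA the kit copied. In whole-culture RNA, fewer cells in S phase and less histone RNA per cell cannot be told apart.

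Detection differed between the classes, and the part of the RNA ends in this was not tested. Of the 69 cluster genes, 41 were detected on no array (detection p under 0.01, the probe set against negative controls), compared with 1 of the 11 variant genes. Of all 47217 probes on the array, 23648 were detected on none. A probe entered the tests when it was detected on at least 3 of the 18 arrays. This left 32 genes, of which 23 were cluster genes (6 of 17 H2A, 5 of 18 H2B, 5 of 13 H3, 5 of 15 H4 and 2 of 6 H1) and 9 were variants. A further 6 genes were detected on 1 or 2 arrays and were not tested. Values are log2 intensities after background correction and quantile normalization. A gene counts as called, and is said to rise or fall, at a limma p under 0.001 with a Benjamini-Hochberg adjusted p under 0.05 over 19455 probes. Of the 32 genes, 13 were called in at least 1 of the 4 comparisons with the control of the line. The share of all probes called in at least 1 of them was not worked out. Singly, these comparisons called 25.1% (GO) and 0.812% (GONH2) of all probes in Jurkat. In THP1 they called 7.93% (labelled GO) and 19.9% (labelled GONH2).

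The promoters of these genes carry short elements that cluster genes share, and the 250 bases before the annotated start are shown for 4 cluster genes that were called and for 2 variants that were called in opposite directions. The strings searched on both strands were the octamer ATTTGCAT (the site of OCT-1, which drives H2B genes in S phase), the CCAAT box CCAAT and the TATA box TATAAA. Capitals mark these matches, none of which overlapped another in the windows shown. The sequences are from RefSeq (GRCh38.p14) and are written from 5′ to 3′ on the strand of the gene.
H2AC20, chr1:149886668-149886917, strand plus: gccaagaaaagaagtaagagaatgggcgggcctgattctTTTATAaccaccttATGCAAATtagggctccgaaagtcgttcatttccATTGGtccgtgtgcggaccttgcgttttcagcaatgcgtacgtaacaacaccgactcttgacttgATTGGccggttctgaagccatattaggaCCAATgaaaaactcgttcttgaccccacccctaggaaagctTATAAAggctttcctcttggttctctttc
H2AC18, chr1:149842751-149843000, strand minus: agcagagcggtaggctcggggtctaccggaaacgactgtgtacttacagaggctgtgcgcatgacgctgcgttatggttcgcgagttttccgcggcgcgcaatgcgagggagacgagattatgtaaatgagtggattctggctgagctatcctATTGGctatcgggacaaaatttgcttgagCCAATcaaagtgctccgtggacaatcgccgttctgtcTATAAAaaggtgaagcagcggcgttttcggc
H4C5, chr6:26204360-26204609, strand plus: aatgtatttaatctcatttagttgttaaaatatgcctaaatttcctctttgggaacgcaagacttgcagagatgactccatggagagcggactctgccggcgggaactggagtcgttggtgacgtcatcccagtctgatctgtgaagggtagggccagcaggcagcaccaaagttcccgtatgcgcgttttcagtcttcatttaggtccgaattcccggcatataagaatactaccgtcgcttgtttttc
H2BC9, chr6:26251364-26251613, strand plus: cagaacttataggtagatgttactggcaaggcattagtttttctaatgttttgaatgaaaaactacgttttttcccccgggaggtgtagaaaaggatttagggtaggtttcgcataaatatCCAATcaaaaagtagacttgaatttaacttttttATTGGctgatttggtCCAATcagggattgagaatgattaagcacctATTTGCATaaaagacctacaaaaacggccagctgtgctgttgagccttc
H1-10, chr3:129316287-129316536, strand minus: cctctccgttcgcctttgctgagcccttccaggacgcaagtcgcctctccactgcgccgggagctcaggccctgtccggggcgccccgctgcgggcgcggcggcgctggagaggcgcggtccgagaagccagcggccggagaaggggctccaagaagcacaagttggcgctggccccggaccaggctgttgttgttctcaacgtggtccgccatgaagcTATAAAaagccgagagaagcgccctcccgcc
H2AJ, chr12:14774155-14774404, strand plus: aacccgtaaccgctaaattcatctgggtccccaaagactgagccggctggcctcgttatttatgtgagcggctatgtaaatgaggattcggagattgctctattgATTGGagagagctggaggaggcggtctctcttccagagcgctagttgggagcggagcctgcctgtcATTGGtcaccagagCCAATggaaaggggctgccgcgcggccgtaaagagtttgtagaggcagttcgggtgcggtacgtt

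A window was given for 31 of the 32 tested genes and for 75 of all 80. The octamer stood in 26 of 64 cluster windows (40.6%), in 1 of 11 variant windows and in 1.63% of 35116 windows of all genes. By family it stood in 14 of 18 H2B windows, 11 of 16 H2A windows and in 0 of 13 H4 windows. CCAAT stood in 84.4% of cluster windows and in 81.8% of variant windows, compared with 32.0% of all windows, and within the clusters in 3 of 13 H4 windows (23.1%) and in every window of the other families. TATAAA stood in 67.2% of cluster windows and 36.4% of variant windows, compared with 10.7% of all. H2AC20 held 1 octamer, 3 CCAAT and 2 TATAAA matches, and H2BC9 held 1 octamer and 3 CCAAT matches. H4C5 held none of the strings, which says no more than that these letters are absent from this window. H2AJ held 3 CCAAT matches as a variant gene, and H1-10 held a single TATAAA.

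In Jurkat cells GO lowered cluster genes and moved variants both ways. Of 23 cluster genes 8 fell and 0 rose, and of 9 variants 2 rose and 1 fell, H3C13 and MACROH2A1 being the calls whose direction did not hold. In all, 11 of 32 histone genes were called in a comparison that called 25.1% of all probes. Probes called lower were 12.3% of all and probes called higher 12.8%, and the fall of 8 of 23 cluster genes stands beside the first share. Scaled to a common median, the arrays gave 3129 probes lower and 585 higher, against 2393 and 2497 here, and 14 histone genes lower and 0 higher. The median log2 change was −0.60 over the cluster genes and 0.00 over the variants, compared with 0.06 over all probes tested. Of the 23 cluster genes, 22 had a negative value, including H4C8 and H2AC6, which no GO or control array detected. The cluster median stayed negative under every scaling tried, between −0.82 and −0.28, whereas the variant median lay at −0.40 when arrays were scaled to a common median. That scaling moved the median of all probes to −0.13 with GO in Jurkat, to −0.23 with the label GO in THP1 and to −0.19 with the label GONH2 in THP1, and values under it are read relative to these shifts.

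**Figure D1:**
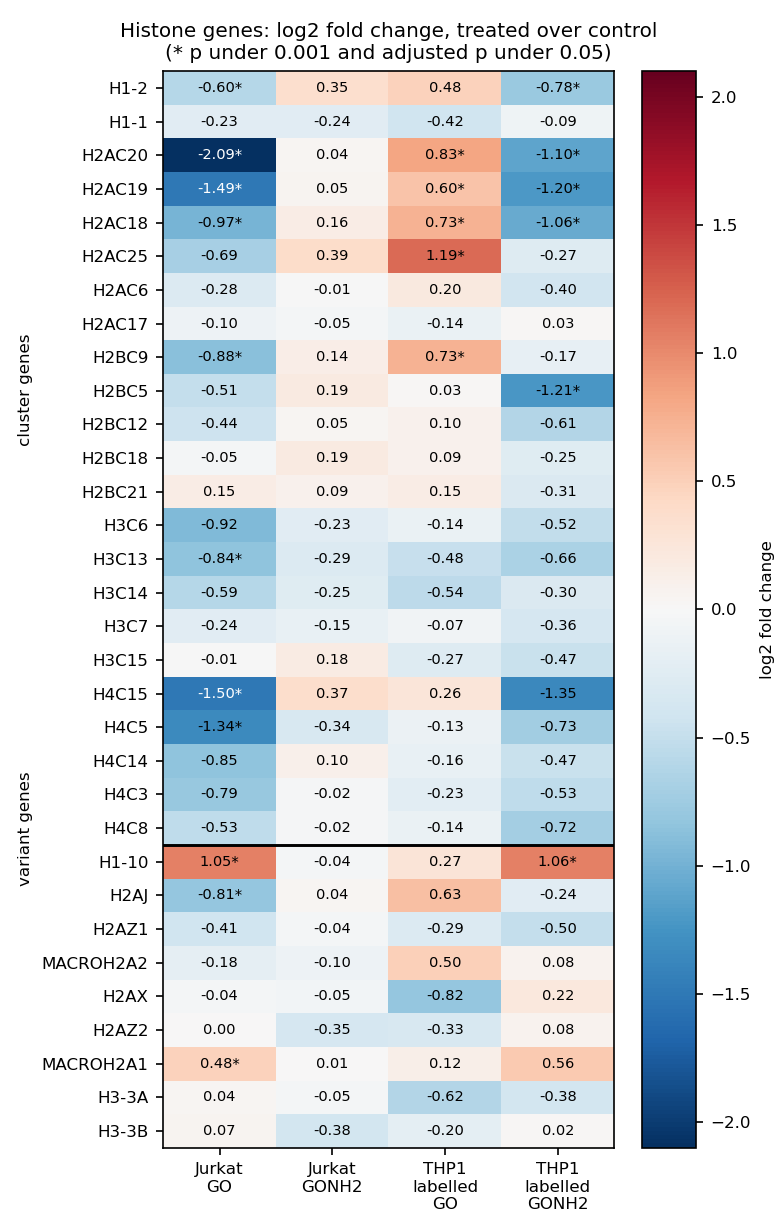
Log2 fold changes of the 32 tested histone genes (rows) in 4 comparisons of treated cells with the untreated cells of the line (columns), with a star where a gene was called. The cluster genes above the line are mostly blue after GO in Jurkat and in THP1 labelled GONH2, near 0 after GONH2 in Jurkat and red for some H2A and H2B genes in THP1 labelled GO.

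H2A genes of the cluster on chromosome 1 fell, and H2AC20 had the widest fall of the tested histone genes. It stood at log2 intensities of 7.56, 7.12 and 7.64 with GO and 9.61, 9.41 and 9.66 with GONH2, against 9.60, 9.50 and 9.48 in untreated Jurkat cells. All 3 GO arrays lay far below the other 6, which overlapped. The change with GO was −2.09 ± 0.15 (SE) on the log2 scale, a fall to 0.236 of the control level (limma adjusted p = 3.79e-05). H2AC19 stood at 7.73, 7.74 and 7.45 with GO and 9.23, 9.21 and 9.11 with GONH2, against 9.12, 9.25 and 9.03 in the control. H2AC18 stood at 8.12, 7.92 and 8.13 with GO and 9.21, 9.04 and 9.33 with GONH2, against 8.99, 9.16 and 8.94 in the control. In both, GO was apart from the other groups, with changes of −1.49 ± 0.12 and −0.97 ± 0.11. H2AC18 and H2AC19 are near-identical duplicated copies, so that their probes may not tell them apart.

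H2AC25, an H2A gene of a small cluster elsewhere on chromosome 1, was lower in value but not called. It stood at 5.68, 5.72 and 5.52 with GO and 7.00, 6.42 and 6.75 with GONH2, against 6.49, 5.88 and 6.64 in untreated Jurkat cells. The GO arrays lay below all controls, at −0.69 ± 0.19. The controls alone spread over a range wider than that change.

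The H2B genes were split. H2BC9 was detected on none of the GO arrays, at 4.76, 5.09 and 5.01, compared with 6.10, 5.83 and 5.98 with GONH2 and 5.99, 5.89 and 5.62 in the control. Since the GO values are under the detection limit, its fall is given as at least 1.41-fold lower, from the control mean against the weakest detected signal of each GO array, or the probe's own signal where that was higher (adjusted p = 0.00145). H2BC5, which is known to give polyadenylated transcripts too, was near the limit in Jurkat cells. Its values were 4.75, 4.76 and 4.81 with GO, under detection on all 3 arrays, and 5.57, 5.28 and 5.57 with GONH2, against 4.78, 5.97 and 5.08 in the control, of which 1 array detected it. H2BC12, H2BC18 and H2BC21 had changes of −0.44, −0.05 and 0.15 and were not called.

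H2BC21 and H2AC20 are neighbors transcribed away from each other. Their starts lie 236 bases apart, and their windows, which run on past the start, share 265 bases. With GO the Jurkat values of H2BC21 were 6.60, 6.82 and 6.61, against 6.57, 6.60 and 6.41 in the control. The groups overlapped, at 0.15 ± 0.11, whereas H2AC20 fell by 2.09 on the log2 scale. Promoter activity was not measured, and the part of the shared stretch in either value was not tested.

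Of the 5 tested H4 genes, 4 had values below the control on every GO array, and H4C8 was detected on no GO or control array. The share of all probes with GO arrays apart from the controls was not worked out. At an unadjusted limma p below 0.05, 4715 of all 19455 probes were lower with GO. H4C5 stood at 4.60, 5.30 and 4.88 with GO, detected on none of the 3 arrays, and at 5.71, 6.17 and 5.92 with GONH2, against 6.20, 6.32 and 6.30 in the control. Its fall was at least 1.92-fold (adjusted p = 0.000564). H4C15 stood at 5.76, 4.79 and 5.72 with GO, detected on 2 arrays, and at 7.24, 7.35 and 7.30 with GONH2, against 6.68, 7.16 and 6.94 in the control. Its change was −1.50 ± 0.26, and GO was apart from the other groups. H4C14, a copy whose 250-base promoter is identical to that of H4C15, had a value of −0.85 and was not called, nor was H4C3 at −0.79. Of the H4 genes 2 of 5 were called.

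Among the H3 genes H3C13 was called, but its probes disagreed. The probe with the highest mean gave −0.84 ± 0.16 (adjusted p = 0.0037), a second gave 1.16, also called, and the remaining one gave −0.19. The mean of the 3 probes was 0.05, so that no direction is given for this gene. H3C6, detected on all 3 controls and on no GO array, was not called, nor were H3C14, H3C7 and H3C15, at −0.59, −0.24 and −0.01. The linker histone gene H1-2 fell by 0.60 ± 0.10 on the log2 scale, with GO arrays at 7.75, 7.77 and 7.57 below the controls at 8.29, 8.32 and 8.27. H1-1 was not called, at −0.23.

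**Figure D2:**
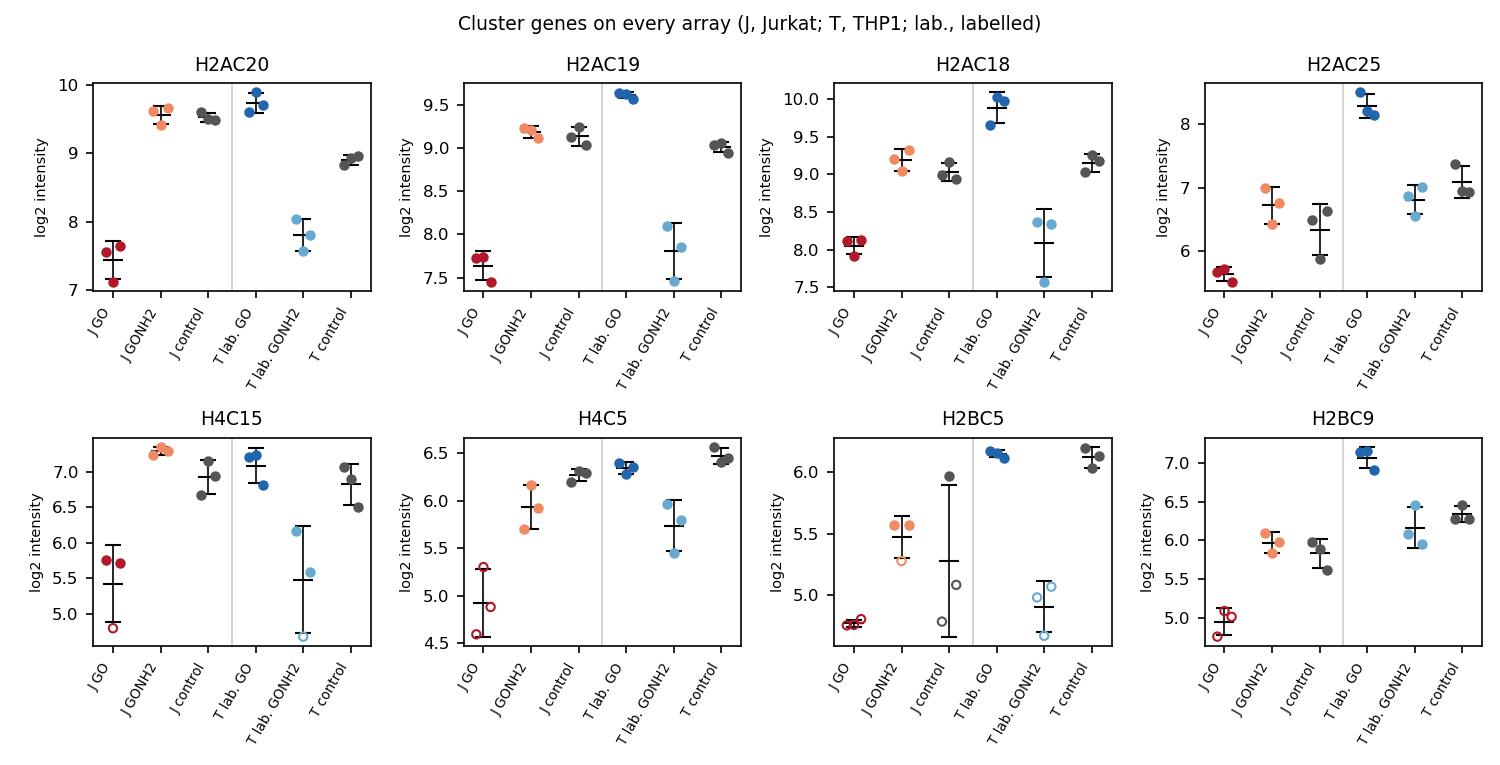
Log2 intensity (y axis) of 8 cluster genes on each array of the 6 groups (x axis), with filled points where the probe was detected, open points where it was not, and bars for the mean ± SD of 3 arrays. In Jurkat cells the GO arrays lie below the other groups for H2AC20, H2AC19 and H2AC18, and in THP1 cells the arrays labelled GONH2 lie low for the same genes while those labelled GO lie above the control.

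Of the variants, the linker histone gene H1-10 rose most with GO in Jurkat cells. It stood at 10.41, 10.41 and 9.97 with GO and 9.26, 9.20 and 9.05 with GONH2, against 9.23, 9.31 and 9.10 in the control. Its change was 1.05 ± 0.14, a level 2.07 times that of the control (adjusted p = 0.000736), while GONH2 overlapped with the control. H2AJ, an H2A variant known to accumulate in senescent human fibroblasts, moved the other way. It stood at 9.41, 9.19 and 9.41 with GO and 10.19, 10.21 and 10.16 with GONH2, against 10.18, 10.21 and 10.05 in the control, a change of −0.81 ± 0.11 with GO (adjusted p = 0.000633).

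MACROH2A1, whose product carries a large macro domain and marks repressed chromatin, was called at 0.48 ± 0.09. Its values were 14.23, 14.24 and 14.26 with GO and 13.78, 13.72 and 13.81 with GONH2, against 13.73, 13.72 and 13.83 in the control. The direction did not hold, since its value was −0.19 under median scaling. The other probes of the gene gave 0.40, 0.30 and, for the weakest, −0.46, none of them called. The second macro-domain gene, MACROH2A2, stood at 7.95, 7.64 and 8.10 with GO and 7.78, 8.08 and 8.08 with GONH2, against 8.08, 7.99 and 8.16 in the control. Those groups overlapped.

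The variants that cells use most widely changed little in Jurkat. H2AZ1, which encodes the H2A.Z found at promoters, stood at 13.48, 13.39 and 13.66 with GO and 13.85, 13.81 and 13.99 with GONH2, against 13.88, 13.88 and 14.02 in the control. The GO arrays were below the control, at −0.41 ± 0.11, and the gene was not called. H2AZ2, its paralog, stood at 6.12, 5.94 and 6.35 with GO and 5.58, 5.91 and 5.87 with GONH2, against 5.91, 6.19 and 6.30. H2AX, whose product is phosphorylated at DNA breaks, stood at 8.93, 9.06 and 8.93 with GO and 9.16, 9.01 and 8.71 with GONH2, against 9.14, 9.00 and 8.89, and all 3 groups overlapped. H3-3A and H3-3B both encode the replacement histone H3.3. H3-3A stood at 14.12, 14.06 and 14.04 with GO and 14.07, 13.93 and 13.95 with GONH2, against 14.05, 13.99 and 14.05. H3-3B stood at 11.43, 11.14 and 11.23 with GO and 10.57, 10.94 and 10.96 with GONH2, against 11.09, 11.22 and 11.28, and its GONH2 arrays lay below the controls without being called.

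**Figure D3:**
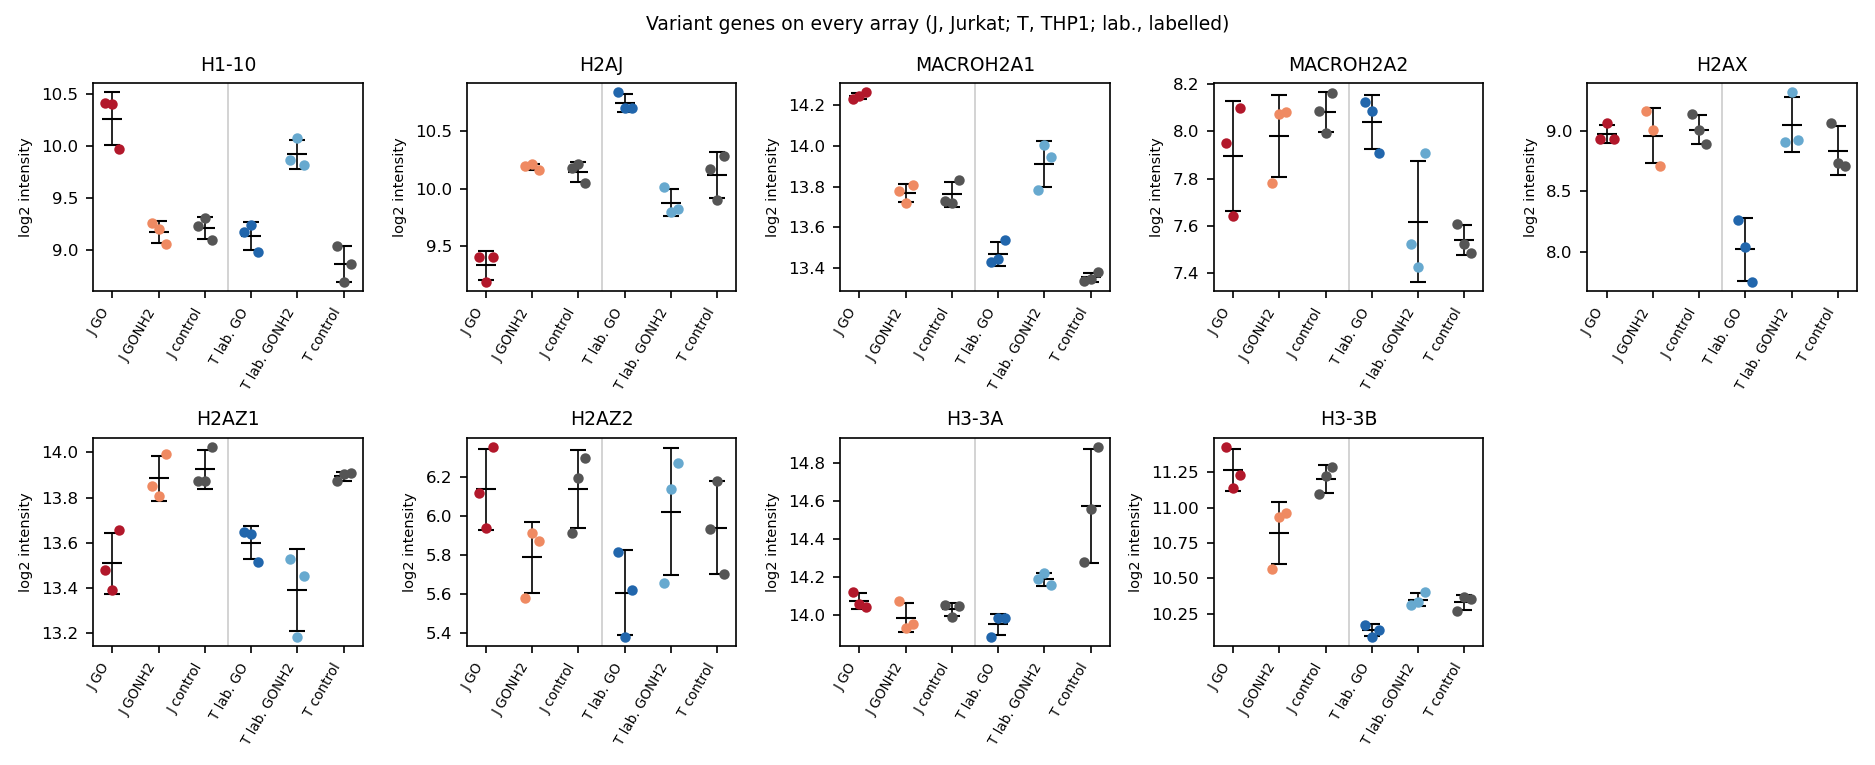
Log2 intensity (y axis) of the 9 tested variant genes on each array of the 6 groups (x axis), with bars for the mean ± SD of 3 arrays. Each panel has its own scale. H1-10 stands high with GO in Jurkat and in THP1 labelled GONH2, and H2AJ stands low with GO in Jurkat and high in THP1 labelled GO.

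The calls with GO in Jurkat differed in how well they stood. Those of H2AC18, H2AC19, H2AC20, H4C5 and H2AJ held under each alternative that tested them and without each of the 6 arrays. Those of H3C13 and MACROH2A1 were lost without any of 5 and of 6 arrays. Those of H1-2, H4C15 and H2BC9 were lost without 4, 3 and 3 of the arrays, with fitted changes that stayed between −0.63 and −0.53, between −1.67 and −1.19 and between −0.98 and −0.78. The call of H1-10 was lost under median scaling, at 0.74, and that of H2BC9 without background correction. There the changes of dim probes were smaller, at −0.27 for H2BC9, −0.45 for H4C5 and −0.62 for H4C15. Without control replicate 1 or control replicate 2 the count was 7 genes.

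With GONH2 in Jurkat cells 0 of 32 histone genes were called by limma, in a comparison that called 0.812% of all probes, 0.524% higher and 0.288% lower (102 and 56 probes, or 25 and 21 under median scaling). When p was left unadjusted, with a threshold of 0.05, 2 were higher and 3 lower, beside 1790 and 1830 of all 19455 probes. The alternatives called up to 2 genes. Values ran from −0.34 to 0.39 over the cluster genes, with a median of 0.05, and from −0.38 to 0.04 over the variants, with a median of −0.05. The widest positive values were those of H2AC25 at 0.39 ± 0.22, H4C15 at 0.37 ± 0.13 and H1-2 at 0.35 ± 0.08.

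GONH2 set directly against GO in Jurkat gave 12 called genes of 32, where 24.1% of all probes were called, 11.8% higher and 12.4% lower (2286 and 2403 probes, or 2677 and 608 under median scaling). Of 23 cluster genes 10 were higher with GONH2, at differences of up to 2.12 ± 0.16 for H2AC20, and 0 were lower. They were H2AC18, H2AC19, H2AC20, H2AC25, H2BC5, H2BC9, H4C5, H4C14, H4C15 and H1-2. Of the variants H2AJ was higher with GONH2, by 0.85 ± 0.11, and H1-10 was lower, at −1.10 ± 0.15. The call of H2BC5 was lost in 9 of 13 alternatives, and the calls of H4C5 and H4C14 were lost without 5 and 4 of the 6 arrays.

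In THP1 cells the arrays labelled GO and those labelled GONH2 lay on opposite sides of the control for H2AC18, H2AC19 and H2AC20, of the 6 tested cluster H2A genes. With the label GO 5 of 32 histone genes were called, where 7.93% of all probes were called. All 5 were cluster genes and all were higher, beside 4.04% of probes called higher and 3.89% called lower. These were 786 and 757 probes, or 235 and 1673 under median scaling, which called 1 histone gene higher and 1 lower, and 995 and 512 when scaled over detected probes. The medians were 0.03 over the cluster genes, −0.20 over the variants and 0.00 over all probes, but the cluster median had no stable sign, at −0.19 under median scaling and 0.16 when scaled over detected probes. For the variants limma called 0 of 9, while an unadjusted p below 0.05 was reached by 2 that were higher and 3 that were lower. At that threshold 3412 of all 19455 probes were higher and 3642 lower. Alternatives called up to 2 variants in either direction.

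With the label GONH2 6 of 32 were called, where 19.9% of all probes were called. Of the cluster genes 5 fell and 0 rose, beside 9.98% of probes called lower, and 1 variant rose, beside 9.89% called higher. Under median scaling 12 histone genes were lower and 0 higher, as all probes split into 3394 lower and 460 higher, against 1941 and 1925 here. The medians were −0.52 over the cluster genes and 0.08 over the variants, compared with 0.05 over all probes. Of the 23 cluster genes, 22 again had a negative value. The cluster median kept its sign under every scaling tried, between −0.67 and −0.18, whereas the variant median was −0.23 under median scaling.

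**Figure D4:**
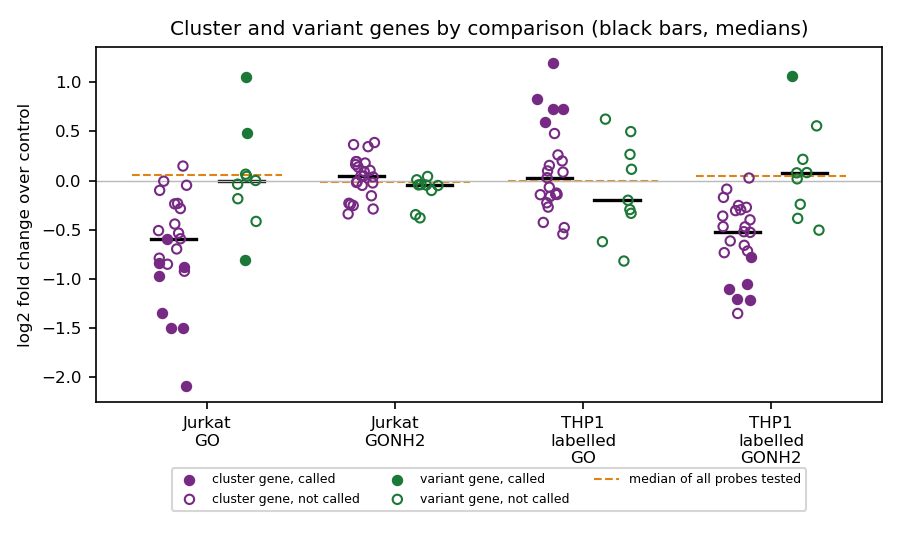
Log2 fold change over the untreated cells of the line (y axis) for each tested cluster gene and variant gene in 4 comparisons (x axis), filled where called, with black bars for the class medians and a dashed line for the median of all probes. The cluster medians lie at −0.60 after GO in Jurkat and −0.52 in THP1 labelled GONH2, and near 0 in the other comparisons.

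H2AC20 stood at 9.60, 9.89 and 9.70 on THP1 arrays labelled GO and 8.03, 7.57 and 7.80 on those labelled GONH2, against 8.82, 8.92 and 8.96 in untreated THP1 cells. The 3 groups did not overlap, and the changes were 0.83 ± 0.11 (limma adjusted p = 0.00385) and −1.10 ± 0.15 (adjusted p = 0.000659). H2AC19 stood at 9.63, 9.62 and 9.57 with the label GO and 8.10, 7.46 and 7.86 with the label GONH2, against 9.03, 9.05 and 8.94 in the control. H2AC18 stood at 9.65, 10.03 and 9.97 with the label GO and 8.36, 7.57 and 8.35 with the label GONH2, against 9.02, 9.25 and 9.17. The same order held in both, at 0.60 and −1.20 for H2AC19 and at 0.73 and −1.06 for H2AC18.

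H2AC25 and H2BC9 rose with the label GO and were not called with the label GONH2. H2AC25 stood at 8.49, 8.21 and 8.14 with the label GO and 6.87, 6.56 and 7.01 with the label GONH2, against 7.38, 6.94 and 6.93 in the control. Its rise of 1.19 ± 0.16 was 2.29-fold (limma adjusted p = 0.00345). H2BC9 stood at 7.14, 7.15 and 6.91 with the label GO and 6.08, 6.46 and 5.96 with the label GONH2, against 6.28, 6.45 and 6.28. Its change with the label GO was 0.73 ± 0.12.

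H2BC5 was called in THP1 with the label GONH2, and in no other comparison with a control. It stood at 6.17, 6.16 and 6.12 with the label GO and 4.98, 4.67 and 5.07 with the label GONH2, under detection on all 3 arrays, against 6.20, 6.03 and 6.13 in the control. The fall was at least 1.71-fold (adjusted p = 0.000428), and the second probe of the gene gave −1.01 without being called. H1-2 fell by 0.78 ± 0.16 on the log2 scale with the label GONH2, at 7.81, 7.35 and 7.72, against 8.54, 8.26 and 8.41 in the control.

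The H4 genes were not called in THP1 cells against the control. H4C15 stood at 7.22, 7.25 and 6.81 with the label GO and 6.17, 4.68 and 5.59 with the label GONH2, against 7.08, 6.90 and 6.51. The change with the label GONH2 was −1.35 ± 0.33, in which replicate 2 lay farthest down. H4C5 stood at 6.40, 6.28 and 6.36 with the label GO and 5.97, 5.45 and 5.80 with the label GONH2, against 6.57, 6.41 and 6.45. Every array labelled GONH2 was below every control for both genes.

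H1-10 was the variant that rose with the label GONH2. It stood at 9.17, 9.24 and 8.98 with the label GO and 9.87, 10.08 and 9.82 with the label GONH2, against 9.03, 8.69 and 8.87 in the control, a change of 1.06 ± 0.14 (limma adjusted p = 0.000678). The call was lost under median scaling. H2AJ stood at 10.83, 10.70 and 10.70 with the label GO and 10.01, 9.80 and 9.82 with the label GONH2, against 10.17, 9.90 and 10.29. Its arrays labelled GO were above all controls, at 0.63, and the gene was not called.

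H2AX stood at 8.27, 8.04 and 7.75 with the label GO and 8.91, 9.32 and 8.93 with the label GONH2, against 9.07, 8.73 and 8.71 in the control. The arrays labelled GO lay below the control, at −0.82 ± 0.16, without a call. H2AZ1 stood at 13.65, 13.64 and 13.52 with the label GO and 13.53, 13.19 and 13.46 with the label GONH2, against 13.87, 13.90 and 13.91, so that all treated arrays lay below all controls, again without a call. H2AZ2 stood at 5.82, 5.38 and 5.62 with the label GO and 5.66, 6.14 and 6.27 with the label GONH2, against 5.93, 6.18 and 5.70. Its label GONH2 arrays overlapped with the control.

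MACROH2A1 stood at 13.43, 13.44 and 13.54 with the label GO and 13.78, 14.00 and 13.95 with the label GONH2, against 13.34, 13.34 and 13.38 in the control. MACROH2A2 stood at 8.12, 8.08 and 7.91 with the label GO and 7.52, 7.43 and 7.91 with the label GONH2, against 7.61, 7.53 and 7.49. Neither was called, although both treated groups of MACROH2A1 lay above the control. H3-3A stood at 13.89, 13.98 and 13.98 with the label GO and 14.19, 14.22 and 14.16 with the label GONH2, against 14.28, 14.55 and 14.88, and the controls were the most spread of its groups. H3-3B stood at 10.18, 10.09 and 10.14 with the label GO and 10.31, 10.34 and 10.40 with the label GONH2, against 10.27, 10.37 and 10.36.

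The calls in THP1 with the label GO were the less firm. That of H2AC25 held under each alternative and without each array, and that of H2AC20 without each array. The calls of H2AC18 and H2AC19 were each lost without 5 of the 6 arrays and that of H2BC9 without 4, with changes that stayed at 0.57 or more. The count was 2 genes without control replicate 3 or without replicate 2 of the label GO, 3 without control replicate 2 or replicate 3 of the label GO, and 2 under median scaling. With the label GONH2 the calls of H2AC19, H2AC20 and H2BC5 held throughout, and those of H1-2 and H2AC18 were lost without 5 and 3 of the 6 arrays.

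The THP1 treatments set against each other, label GONH2 over label GO, gave 11 called genes of 32, where 28% of all probes were called, 14.7% higher and 13.2% lower. Of the cluster genes 8 were lower with the label GONH2 and 0 higher, at differences of −1.93 ± 0.15 for H2AC20, −1.80 for H2AC19, −1.79 for H2AC18, −1.61 for H4C15, −1.47 for H2AC25, −1.26 for H1-2 and −0.90 for H2BC9. H2BC5 was at least 1.75-fold lower. Of the variants H2AJ was lower, at −0.87 ± 0.12, and H1-10 and H2AX were higher, at 0.79 ± 0.13 and 1.03 ± 0.17. The calls of H4C15, H2BC9, H2AX and H1-10 were lost without 4, 4, 3 and 1 of the 6 arrays. That of H4C15 was also lost in 2 of 13 alternatives.

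The response of the histone genes to GO in Jurkat was most like that of the THP1 arrays labelled GONH2, which have controls of their own. Across the 32 genes, which share the normalization and include duplicated copies, the log2 changes correlated at 0.81, and at 0.68 within the 23 cluster genes. Across the same genes the changes with GO in Jurkat correlated at −0.36 with those of the THP1 arrays labelled GO. Of the 9 genes lower with GO in Jurkat and the 5 lower with the label GONH2 in THP1, 4 were shared, namely H1-2, H2AC18, H2AC19 and H2AC20. These are descriptions without a test, and the same figures were not worked out over all probes. The likeness was not limited to histone genes. A test of the difference in GO response between the lines called 2371 probes more positive and 2390 more negative in Jurkat. With the THP1 labels exchanged it called 52 and 59.

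The tested cluster genes lie on chromosomes 1 and 6, and both places held called genes. With GO in Jurkat 5 of 11 tested cluster genes of chromosome 1 were called lower, with a median of −0.84. For chromosome 6 it was 3 of 12, with a median of −0.52, beside 12.3% of all probes called lower. The 5 of chromosome 1 include H3C13, whose probes disagreed, and the near-identical copies H2AC18 and H2AC19. In THP1 with the label GO 4 of 11 and 1 of 12 rose, beside 4.04%. In THP1 with the label GONH2 3 of 11 and 2 of 12 fell, beside 9.98%, and the medians were −0.47 and −0.52.

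The response to the same label was compared between the lines by an interaction term. For GO 9 of 32 histone genes were called, where 24.5% of all probes were called, and in each of the 9 the response was more negative in Jurkat than in THP1, as in 12.3% of all probes, compared with 12.2% more positive. They were 8 cluster genes, led by H2AC20 with a difference of −2.91 ± 0.19, and H2AJ. For GONH2 5 were called, where 18.6% of all probes were called. In 4 cluster genes the response was more positive in Jurkat than in THP1, with 1.25 ± 0.20 for H2AC19 as the widest, and in H1-10 more negative, compared with 9.06% and 9.52% of all probes (1762 and 1853, or 1938 and 234 under median scaling). With the THP1 treatment labels exchanged the counts were 0 and 2 of 32. Over all 19455 probes that exchange left 52 called more positive and 59 more negative for GO, and 511 and 561 for GONH2.

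The untreated lines differed in 4 of 32 histone genes, where 11.1% of all probes were called, 5.86% higher in Jurkat and 5.28% lower (1141 and 1027 probes, or 590 and 1045 under median scaling). H3-3B stood at 11.09, 11.22 and 11.28 in Jurkat against 10.27, 10.37 and 10.36 in THP1, a difference of 0.87 ± 0.10 (limma adjusted p = 0.0008). H2AC20 was higher in Jurkat by 0.62 ± 0.09 and MACROH2A2 by 0.54 ± 0.10. Their calls were lost without 3 and 5 of the 6 arrays, and in 2 and 3 of 13 alternatives. H2BC12 was lower in Jurkat, at 8.57, 8.74 and 8.79 against 9.54, 9.55 and 9.72 in THP1, a difference of −0.91 ± 0.11, and this call held throughout. Without Jurkat control replicate 1, or without THP1 control replicate 2, the count was 2.

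The machinery that makes, ends and places histones was followed in lists chosen with earlier results of these data known. NPAT, which switches on cluster genes in S phase, had log2 changes of 0.20 ± 0.10 with GO and 0.04 ± 0.16 with GONH2 in Jurkat, and of −0.60 ± 0.21 with the label GO and 0.05 ± 0.19 with the label GONH2 in THP1. SLBP, the stem-loop binding protein gene, had 0.33 ± 0.13, 0.36 ± 0.10, −0.11 ± 0.10 and 0.18 ± 0.15 in the same order. Neither was called in any of these comparisons. None of the 5 tested genes of histone transcription was called by limma in a comparison with a control, whereas an unadjusted p below 0.05 was reached by at most 1 that was higher and 2 that were lower in a comparison.

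Of 19 genes of 3′ end processing and decay, 3 rose and 3 fell with GO in Jurkat, 31.6% beside the 25.1% of all probes called. SNRPG, which encodes an Sm protein of small nuclear ribonucleoproteins, fell by 2.16 ± 0.12 on the log2 scale, and LSM10, a subunit of the U7 particle that directs histone cleavage, fell by 1.09 ± 0.12. SNRPE, another Sm gene, was called lower without a size, since no GO array detected it. SRRT rose by 0.92 ± 0.10, SYMPK, the scaffold of the cleavage complex, by 0.85 ± 0.11 and CPSF2 by 0.65 ± 0.11. In THP1 with the label GONH2 2 rose and 2 fell, 21.1% beside 19.9% of all probes, with SNRPG at −1.72 ± 0.24, and with the label GO 0 rose and 2 fell, 10.5% beside 7.93%, with SNRPG at −0.68 ± 0.10. Under median scaling the falls held in each of these comparisons and the rises lost their calls. With GONH2 in Jurkat limma called 0, whereas an unadjusted p below 0.05 was reached by 1 that was higher and 2 that were lower.

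Histone chaperones escort histones to DNA, and 7 of 22 rose and 0 fell with GO in Jurkat, where 12.8% of all probes rose and 12.3% fell. TONSL rose by 0.89 ± 0.14, IPO4 by 0.87 ± 0.11, ASF1B by 0.80 ± 0.09 and CHAF1A, a subunit of the CAF-1 complex of replicating DNA, by 0.77 ± 0.11. With the label GONH2 in THP1 6 of 22 rose and 0 fell, beside 9.89% and 9.98% of all probes, among them IPO4 at 1.16 ± 0.14, MCM2 at 1.15 ± 0.15, ASF1B at 1.05 ± 0.12 and CABIN1 at 0.97 ± 0.12. With the label GO in THP1 NASP rose by 0.64 ± 0.10 and ASF1B fell by 0.58 ± 0.10, beside 4.04% of all probes higher and 3.89% lower. Under median scaling 0 of the 7 rises in Jurkat and 1 of the 6 in THP1 kept their calls.

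Of 29 genes of DNA replication, 7 rose and 4 fell with GO in Jurkat, 37.9% beside the 25.1% of all probes called. CDT1, which licenses origins, rose by 1.47 ± 0.10, POLD1, a DNA polymerase subunit, by 1.20 ± 0.12 and RRM2, of ribonucleotide reductase, by 1.06 ± 0.14, whereas RFC4, of the clamp loader, fell by 1.00 ± 0.10. With the label GONH2 in THP1 13 rose and 2 fell, beside 9.89% and 9.98% of all probes, with CDT1 at 1.80 ± 0.13, MCM5 at 1.45 ± 0.13, POLD1 at 1.27 ± 0.14 and RRM2 at 1.20 ± 0.13. With the label GO in THP1 1 rose and 2 fell, namely CDT1 at 0.61 ± 0.11, FEN1 at −0.68 ± 0.12 and POLE2 at −0.54 ± 0.10, beside 4.04% and 3.89% of all probes. Under median scaling 3 of the 7 rises in Jurkat and 4 of the 13 with the label GONH2 kept their calls, as did all falls. In Jurkat cells GONH2 changed 0 genes of either list by limma, whereas an unadjusted p below 0.05 was reached by 1 chaperone gene and 3 replication genes that were higher and 1 replication gene that was lower.

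**Figure D5:**
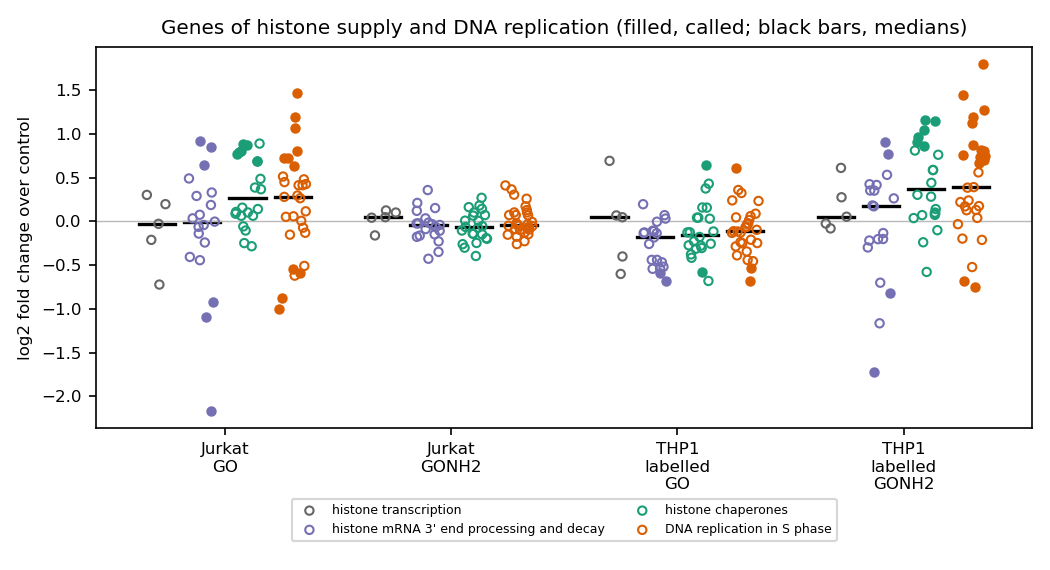
Log2 fold change over the untreated cells of the line (y axis) for genes of histone transcription, of histone mRNA 3′ end processing and decay, of histone chaperones and of DNA replication in 4 comparisons (x axis), filled where called, with black bars for medians. Chaperone and replication genes show filled points above 0 with GO in Jurkat and with the label GONH2 in THP1.

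Markers of cell type moved as well. The log2 of the summed intensity of the 20 monocyte markers ran from 16.09 to 16.24 with GO and from 15.38 to 15.44 with GONH2, against 15.54 to 15.62 in untreated Jurkat cells. The sum was taken over linear intensities, so that the brightest markers weigh most. With GO in Jurkat these were ELANE, PRTN3, CTSG and AZU1, at mean log2 intensities of 14.35, 13.98, 13.83 and 13.34. The markers did not move as one, since 6 of 20 were called higher and 5 lower with GO in Jurkat. In THP1 it ran from 15.85 to 15.99 with the label GO and from 16.68 to 16.71 with the label GONH2, against 16.40 to 16.50, with 2 called higher and 9 lower with the label GO and 2 higher and 5 lower with the label GONH2. For the 18 T-cell markers it ran from 10.00 to 10.13 with GO and from 10.08 to 10.11 with GONH2, against 10.18 to 10.35 in untreated Jurkat cells. Of the 11 T-cell markers tested, 1 was called with GO in Jurkat, CD3D, which was lower, while an unadjusted p below 0.05 was reached by 5 that were higher and 2 that were lower. CD3D, of the T-cell receptor, was detected on 2 arrays with GO and on 3 in each of the other Jurkat groups, with mean log2 intensities of 5.41 with GO and 7.49 with GONH2, against 7.86 in the control, and CD3E was detected on none. The part of these shifts in the histone values was not tested.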

How the data were processed

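Total RNA of 18 samples was labelled by the authors with an oligo(dT)-primed kit and hybridized to Illumina HumanHT-12 v4 arrays, and the values came from GenomeStudio V2011.1, a version taken from the submitters' processing notes. The deposited intensities of the first table are linear probe signals without normalization between arrays. The deposited detection p-values set each probe against negative controls. The deposited intensities of the second table had been normalized by the authors, by a method not given in the sources used here, and served as an alternative. With 3 arrays in a group, precision is limited by their number.

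Background in the first table was removed by the neqc function of limma 3.58.1 (R 4.3.3, detection p-values as guide, offset 16), and the table was quantile normalized over 18 arrays and put on the log2 scale. A probe was tested if 3 or more arrays gave it a detection p under 0.01, which kept 19455 of 47217 probes, 42 of them for histone genes. The tested probe with the highest mean stood for a gene. Each comparison of 2 groups was fitted on its 6 arrays, and each interaction on 12, with Benjamini-Hochberg adjustment over all tested probes. Symbols came from GEO's platform annotation, updated to current names. The calling was tested on simulated data. The same replicate numbers occur in every group, and whether they pair the samples is not known. Same-numbered arrays deviated together at correlations of −0.07 to 0.16, which are weak but cannot exclude pairing. The main fits treated the samples as unpaired. The alternatives used the second table, left the background in place, raised the offset to 50 or scaled arrays to the median of all or of detected probes. Others were cyclic loess, each line normalized separately, no detection filter, detection on all 18 arrays, a fit of all 18 arrays, a replicate block, limma-trend with robust variance, the adjusted p alone, the mean of a gene's probes, exchanged THP1 labels and leaving out each array.

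The members and the gene lists were chosen with earlier results of these data known. Values on every array were given for up to 8 genes per class with the widest log2 change among genes that were called, with groups that did not overlap, in any comparison with a control, and for the tested H2AZ1, H2AZ2, H2AX, H2AJ, H3-3A, H3-3B, MACROH2A1, MACROH2A2 and H1-10. Other called members have fold changes. SLBP, NPAT and up to 4 called members per list were named. H2BC21, H2BC12, CD3D, CD3E and the array values of H1-2, H3-3B and further genes without a call were added after their values had been seen. Protein sequences, probe sequences and stem-loops were not used here.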

Additional observations from a re-analysis of the deposited data

Results flagged for a closer look

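For 9 histone genes the response to the label GO differed between the lines by limma's interaction term, as Jurkat minus THP1 on the log2 scale. The differences were −2.91 for H2AC20, −2.09 for H2AC19, −1.89 for H2AC25, −1.77 for H4C15, −1.70 for H2AC18, −1.61 for H2BC9, −1.44 for H2AJ, −1.22 for H4C5 and −1.08 for H1-2, with adjusted p-values up to 0.00144. For 5 genes the response to the label GONH2 differed, by 1.25 for H2AC19, 1.22 for H2AC18, 1.14 for H2AC20, 1.12 for H1-2 and −1.10 for H1-10, with adjusted p-values up to 0.00297. No Jurkat array with GO detected H2BC9 or H4C5, so that their fitted differences with the label GO rest on signals under the detection limit and give no size. The THP1 labels bear on all 14 differences, and the report gives what the study's tables show of those labels.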

How the results depend on the processing

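The number of histone genes called, of 32, depended on the processing as follows. With the adjusted p alone it was 18 for GO in Jurkat, 13 and 14 for THP1 with the labels GO and GONH2, 20 and 19 for GONH2 against GO in Jurkat and in THP1, 9 between the untreated lines, and 16 and 12 for the interactions with GO and with GONH2. With the authors' normalized values it was 2 for GONH2 in Jurkat, 10 for each THP1 label and 7 between the untreated lines. Without background correction it was 2, 10, 10 and 8 for the same comparisons, and 14 and 8 for the interactions. With an offset of 50 it was 9 and 11 for the THP1 labels GO and GONH2 and 8 for the GONH2 interaction. Median scaling gave 2 and 12 for those labels and 2 between the untreated lines, and detection on all 18 arrays gave 8 for the label GO. A fit of all 18 arrays gave 8 and 12 for the labels, 7 between the untreated lines and 8 for the GONH2 interaction. Limma-trend gave 1 for GONH2 in Jurkat, 10 for the label GO, 7 between the lines and 8 for the GONH2 interaction. With exchanged THP1 labels the interactions gave 0 for GO and 2 for GONH2, since the arrays compared are then others. Leaving out 1 array gave 7 to 10 for GO in Jurkat, 0 to 0 for GONH2 in Jurkat, 2 to 4 and 4 to 9 for the THP1 labels GO and GONH2, 9 to 11 and 8 to 10 for GONH2 against GO in Jurkat and in THP1, 2 to 4 between the lines, and 9 to 11 and 4 to 7 for the interactions. Counts over all probes moved with the processing too. With the adjusted p alone 5129 of 19455 probes were higher and 4152 lower with GO in Jurkat. They were 1938 and 2130 with the label GO in THP1, and 4292 and 3888 with the label GONH2. With the authors' normalized values 550 were higher and 378 lower with GONH2 in Jurkat. The THP1 labels then gave 1456 and 1507 for GO and 2577 and 2383 for GONH2. The cause of the other shifts was not tested.

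With the replicate block the counts were 8 for GO in Jurkat and 2 between the untreated lines, with 10 calls of single histone genes lost and 5 gained over all comparisons. Whether the replicate numbers pair the samples is not known.

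Directions turned in these cases. H3C13 with GO in Jurkat was 0.0453 as the mean of its probes, since they disagree. Under median scaling MACROH2A1 with GO in Jurkat was −0.19, and MCM7 was −0.00297 with GO in Jurkat and 0.0073 for GONH2 against GO there. With exchanged THP1 labels the GO interaction was 0.18 for H1-2 and 0.0826 for H2AC18, and the GONH2 interaction −0.13 for H1-2, −0.57 for H2AC18, −0.55 for H2AC19 and −0.79 for H2AC20. Probes near the detection limit, such as those of H4C5, H2BC9 and H2BC5, limit what can be said of their size of change.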
